A study of Mus musculus with 12 samples.

Results

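The 9 genes described here build the major histocompatibility complex (MHC) class I pathway, which shows fragments of a cell's own proteins at its surface. They are the class I heavy chain gene H2-Q2, the light chain gene B2m, the peptide transporter genes Tap1 and Tap2, the loading factor gene Tapbp, the immunoproteasome genes Psmb8, Psmb9 and Psmb10, and Nlrc5, which encodes an activator of class I promoters. They were chosen by gene symbol from an Affymetrix mouse array, with every probe set that carries 1 of these symbols alone. The choice gave 15 probe sets for the 9 genes, of 45099 probe sets and 18194 genes in all. Tap1 had 4 of them, B2m, Tapbp and Psmb8 had 2 each and the others 1 each. A gene is represented by its brightest probe set unless another is named, and all 9 passed the filter on dim genes that left 11649 genes for testing.

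RNA came from thymocytes, the developing T cells of the mouse thymus, sorted at 3 stages from wild-type (WT) animals and from IkL/L animals, which the series title calls Ikaros-deficient. The gene Ikzf1 encodes Ikaros, a DNA-binding regulator of blood cell development. DN3 and DN4 cells are successive precursors without the CD4 and CD8 co-receptors, and DP cells carry both. Each of the 6 groups had 2 arrays, 12 in all, and cells of 3 mice were pooled for sorting. Strain, age and the nature of the IkL/L allele are not given in the sources used here. The sources also leave unsaid whether the 2 arrays of a group came from separate pools, and p-values measure only the spread between these arrays. In IkL/L the 2 arrays of each stage differed in Y-linked signal, as given below, and so did not come from 1 pool of cells. In WT their spread may be technical.

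In the class I pathway, proteasomes cut proteins into peptides, and the immunoproteasome subunits Psmb8, Psmb9 and Psmb10 take the places of the constitutive catalytic subunits Psmb5, Psmb6 and Psmb7. The transporter formed by Tap1 and Tap2 moves peptides into the endoplasmic reticulum. There tapasin, the product of Tapbp, helps to load them onto a heavy chain bound to beta-2 microglobulin, the product of B2m. Class I genes are known to be inducible by interferons, through interferon-responsive promoter elements and through Nlrc5. Thymocytes need class I molecules on neighbouring cells for the selection of CD8 T cells, and DP thymocytes are known to carry little of them on their own surface.

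The stages and genotypes could be told apart on the arrays. The cytokine receptor gene Il2ra, which marks DN3 cells, fell by 4.74 from DN3 to DN4 in WT and by 5.22 in IkL/L on the log2 scale. Of the 7 markers of the DN3 stage, to which it belongs, 6 fell at this step in WT (median -2.18) and 3 in IkL/L (median -0.98), against 7.7% and 3.19% of all tested genes. The co-receptor genes Cd4 and Cd8a rose by 4.76 and 5.39 from DN4 to DP in WT. The brighter of the 2 Ikzf1 probe sets was at 63.7% of WT in IkL/L DN3 cells, 64.5% in DN4 and 61.7% in DP, and the dimmer at 81.8%, 48.9% and 85.3%. The mean of 3 Y-linked genes lay at 3.07, 3.45 and 3.28 on the IkL/L replicate 2 arrays and between 6.59 and 8.36 on the other 9, so those 3 arrays stand apart. Granulocyte markers averaged 6.72 on IkL/L DN3 replicate 1 and 5.66 on IkL/L DN4 replicate 1, against 4.67 to 5.29 on the other arrays. Mature T cell markers averaged 7.93 on IkL/L DP replicate 2 and 6.78 on replicate 1. The parts of these differences in the results below were not tested. Markers of dendritic cells and macrophages averaged 5.30 to 5.72 over the arrays, those of B cells 4.86 to 5.26 and those of stroma 5.07 to 5.58, against array medians of 5.14 to 5.22. Precision is set by having 2 arrays in a group. Signals are given as log2 values, and differences with their SE and adjusted p come from limma over all 12 arrays, with Benjamini-Hochberg adjustment across the 11649 genes. A difference is said to have passed, or to be called, at an adjusted p under 0.05.

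Promoter sequences of 7 of the 9 genes were found in RefSeq (mouse assembly GRCm38.p6). Shown here are those that bear on contrasts described below. Psmb9 and Tap1 are transcribed away from each other, and only 225 bases lie between their starts, at chr17:34187331-34187555, given on the plus strand from the Psmb9 start to the Tap1 start. For the 2 chains of the class I molecule, the 250 bases before the start are given. B2m lies at chr2:122147437-122147686 and H2-Q2 at chr17:35342057-35342306, both on the plus strand. Capitals mark matches to any of 3 patterns on either strand: GGGAA, the core that Ikaros proteins recognise, ATTGG, the inverted CCAAT box, and GAAA, any 2 bases, GAAA, the pattern of interferon-stimulated response elements.
Psmb9-Tap1: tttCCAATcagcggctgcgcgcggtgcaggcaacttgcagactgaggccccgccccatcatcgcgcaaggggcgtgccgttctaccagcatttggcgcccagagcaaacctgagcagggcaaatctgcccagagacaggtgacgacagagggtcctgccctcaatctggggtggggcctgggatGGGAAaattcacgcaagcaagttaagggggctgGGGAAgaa
B2m: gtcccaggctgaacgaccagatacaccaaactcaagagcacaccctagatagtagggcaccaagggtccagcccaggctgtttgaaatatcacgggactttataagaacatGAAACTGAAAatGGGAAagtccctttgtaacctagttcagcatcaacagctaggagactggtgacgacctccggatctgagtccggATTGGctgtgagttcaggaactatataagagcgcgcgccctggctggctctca
H2-Q2: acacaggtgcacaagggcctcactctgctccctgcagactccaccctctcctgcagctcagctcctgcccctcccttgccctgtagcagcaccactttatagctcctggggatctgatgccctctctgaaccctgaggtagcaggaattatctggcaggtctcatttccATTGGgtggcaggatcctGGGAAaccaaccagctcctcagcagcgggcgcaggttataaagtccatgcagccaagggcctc
GGGAA was present in all 7 windows of 250 bases and in 56.2% of 32851 such windows in the table. The longer TGGGAA, which contains it, was present in the same 7 and in 21.6% of all windows. ATTGG was found in 5 of the 7 (33.8% of all windows), and TGACG, part of the X box of class I promoters, in 3 (17.8%), namely B2m, Psmb9 and Tap1. The interferon pattern above was found in B2m alone (2.98% of all windows). A further pattern that was searched, TTC, any 3 bases, GAA, was found in Psmb8 alone (7.02% of all windows). Psmb9 and Tap1 share most of their window and are not separate cases. A match is a run of letters, and binding was not measured.

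H2-Q2, a non-classical class I heavy chain gene of the Q region, had the largest differences of the 9, both between stages and between genotypes, and its course through the stages differed between the genotypes. In WT cells it read 7.63 and 7.49 in DN3, 9.94 and 9.51 in DN4, and 10.93 and 10.98 in DP (log2 signal on the 2 arrays of each group). The WT signal thus climbed at both steps, by 2.17 ± 0.19 (SE) and then by 1.23 ± 0.19, with adjusted p = 2.98e-05 and 0.000136. In IkL/L cells it read 8.92 and 9.37 in DN3, 10.17 and 10.52 in DN4, and 10.25 and 10.26 in DP. It rose there by 1.20 ± 0.19 from DN3 to DN4 (adjusted p = 0.00311) and differed by -0.08 (95% interval -0.49 to 0.32, adjusted p = 0.764) from DN4 to DP.

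The genotypes therefore stood in opposite order at the 2 ends. In DN3 cells both IkL/L arrays lay above both WT arrays, at 301% of the WT signal, a difference of 1.59 ± 0.19 (adjusted p = 0.000325). In DN4 cells IkL/L was at 153% of WT, 0.62 ± 0.19 on the log2 scale, which did not pass the test (adjusted p = 0.0679). In DP cells both IkL/L arrays lay below both WT arrays, at 61.6% of WT, a difference of -0.70 ± 0.19 (adjusted p = 0.0485). The genotype difference changed by -2.29 ± 0.26 between DN3 and DP cells (adjusted p = 0.000983) and by -1.32 ± 0.26 between DN4 and DP cells (adjusted p = 0.0422). From DN3 to DN4 it changed by -0.97 ± 0.26 (adjusted p = 0.317), and averaged over stages it was 0.50 ± 0.11 (adjusted p = 0.0083). In bulk RNA of sorted cells, fewer cells with a transcript and less transcript per cell cannot be told apart.

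The DN3 difference, its change from DN3 to DP, both WT steps and the IkL/L step from DN3 to DN4 passed the test under all 26 alternatives run. The DP difference did not, since it missed the threshold on removal of WT DN3 replicate 1 (adjusted p = 0.0753) or 2 (0.0756), WT DP replicate 1 (0.118) or 2 (0.13), IkL/L DN4 replicate 1 (0.0506) or 2 (0.0508), and IkL/L DP replicate 1 (0.194) or 2 (0.178). The change from DN4 to DP missed it on removal of WT DN3 replicate 1 (adjusted p = 0.0762) or 2 (0.0772), WT DN4 replicate 2 (0.204), WT DP replicate 1 (0.0924) or 2 (0.0707), IkL/L DN4 replicate 1 (0.0626) or 2 (0.192), and IkL/L DP replicate 1 (0.103) or 2 (0.142). The averaged difference was 0.37 without the 3 IkL/L replicate 2 arrays. It was 0.28 (adjusted p = 0.201) with the replicate number as a block within genotype, a fit that compares the genotypes at replicate 1. H2-Q2 has close relatives in the same region, and a probe set may also read their transcripts. A further probe set that carries H2-Q2 among several symbols had group means between 3.94 and 4.11, below the array medians.

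**Figure D1:**
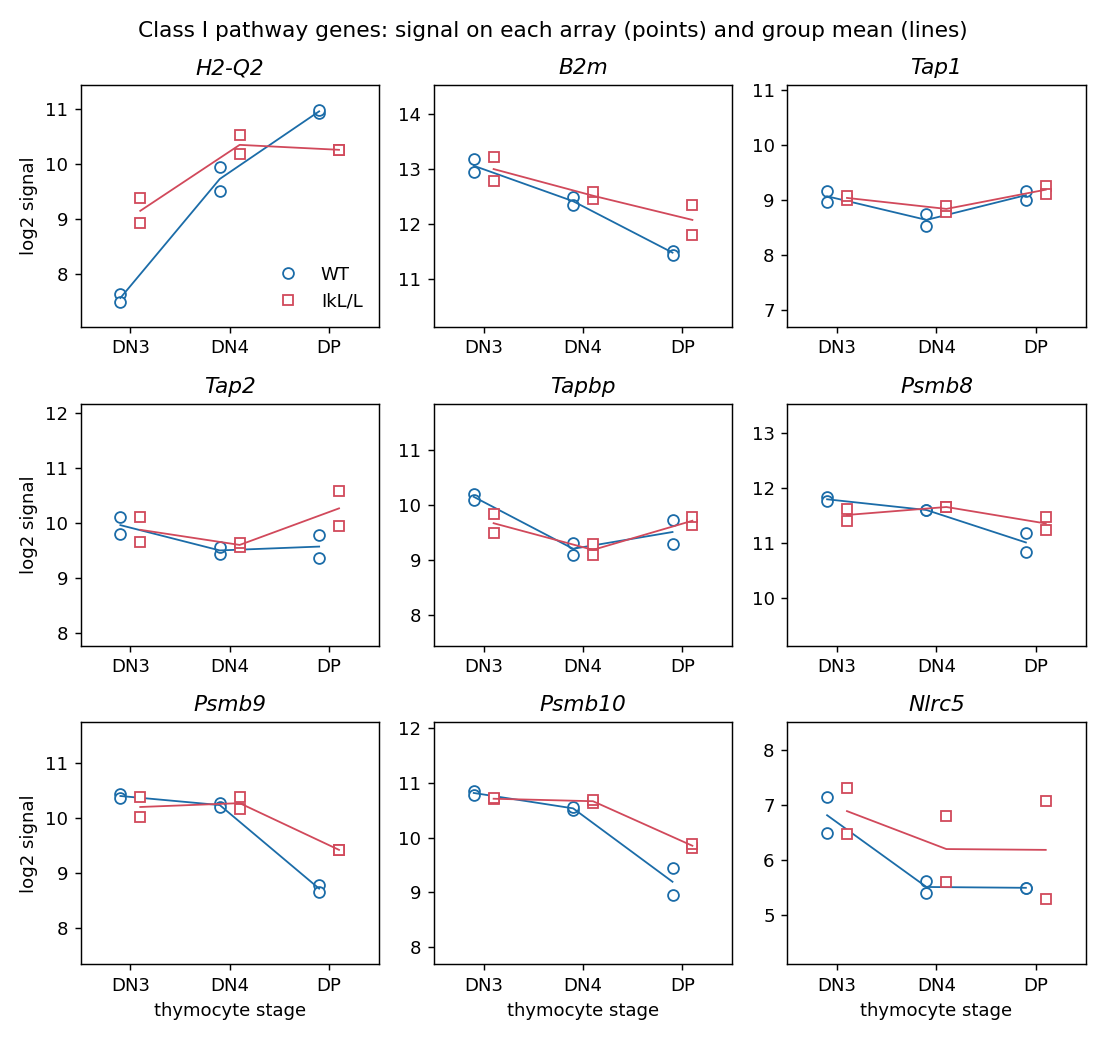
Log2 signal (vertical axes, each spanning the same range) of the 9 genes in DN3, DN4 and DP thymocytes, with 1 point per array and lines through the means of the 2 arrays of each WT and IkL/L group. H2-Q2 climbs at both steps in WT and levels off at 10.25 and 10.26 in IkL/L DP cells, while Psmb9 and Psmb10 drop from DN4 to DP.

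B2m, the light chain of class I molecules, went the other way from H2-Q2. Its WT signal was 13.17 and 12.94 in DN3, 12.48 and 12.34 in DN4, and 11.51 and 11.44 in DP. From DN4 to DP, a step at which 57% of all tested genes were called in WT and 45.5% in IkL/L, it fell by 0.93 ± 0.19 to 52.3% (adjusted p = 0.00134), a call kept under all 26 alternatives. The step from DN3 to DN4, at -0.64 ± 0.19, did not pass (adjusted p = 0.0593), and did in 10 of the 26. In IkL/L cells B2m was 13.21 and 12.78 in DN3, 12.45 and 12.57 in DN4, and 11.79 and 12.35 in DP, and neither step passed (-0.48 with adjusted p = 0.218, then -0.43 with adjusted p = 0.0882). The second of these steps passed without IkL/L DP replicate 2 (-0.71, adjusted p = 0.0163) and without all 3 IkL/L replicate 2 arrays (-0.65, adjusted p = 0.0325), and was -0.15 (adjusted p = 0.6) without IkL/L DP replicate 1. Both IkL/L DP arrays lay above both WT DP arrays, by 0.60 ± 0.19 on average, short of the threshold (adjusted p = 0.102). For this probe set the value rests on which IkL/L DP array is kept: it was 0.88 with replicate 2 alone and 0.32 with replicate 1 alone. The second B2m probe set gave 0.73 ± 0.23 in DP cells (adjusted p = 0.226 over all probe sets). Its DP arrays read 11.19 and 11.31 in IkL/L against 10.46 and 10.59 in WT, and the difference stayed between 0.67 and 0.79 on removal of any 1 array. For the WT step from DN4 to DP it gave -1.28 ± 0.23 (adjusted p = 0.00217), so both probe sets pointed the same way.

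H2-K1, a classical heavy chain gene that presents peptides to CD8 T cells, fell in WT where H2-Q2 rose. Its WT signal was 11.87 and 11.45 in DN3, 10.55 and 10.38 in DN4, and 8.65 and 8.42 in DP. It fell by 1.93 ± 0.32 from DN4 to DP (adjusted p = 0.000275), and 3 of its 4 probe sets fell in the fit over all probe sets. In IkL/L DP cells it read 9.11 and 10.37, above both WT arrays by 1.20 ± 0.32 (adjusted p = 0.047). That call was lost in 18 of 26 alternatives, and it was 0.57 (adjusted p = 0.287) on removal of IkL/L DP replicate 2. H2-D1, the other classical gene, differed by -0.49 ± 0.26 at the WT step (adjusted p = 0.122) and by 0.62 ± 0.26 between genotypes in DP cells (adjusted p = 0.215). Over all probe sets none of the 4 for H2-K1 (0.32 to 1.20) and none of the 9 for H2-D1 (-0.13 to 0.78) passed in DP cells. As for H2-Q2, these probe sets may also read transcripts of related class I genes, so they may not be separate readings. Among 8 tested heavy chain and class I-like genes besides H2-Q2, 3 rose from DN4 to DP in WT and 1 fell, against 23.8% and 33.2% of all genes. The risen ones were Cd1d1 (1.82), which presents lipids to NKT cells, Mr1 (1.39), which presents vitamin B metabolites, and H2-T24 (1.11). The same 3 rose in IkL/L by 1.50, 1.42 and 0.75, and 2 of the 8 fell there, against 19.5% and 26% of all genes. The fallen ones were H2-K1 (-0.88, adjusted p = 0.0396), a call lost in 11 of 26 alternatives, and Hfe (-0.58, adjusted p = 0.0139), lost in 4 of 25. Hfe, a class I-like regulator of iron uptake, was higher in IkL/L DN3 cells by 1.31 ± 0.17 (adjusted p = 0.000668) under all 25 alternatives that gave a value.

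**Figure D2:**
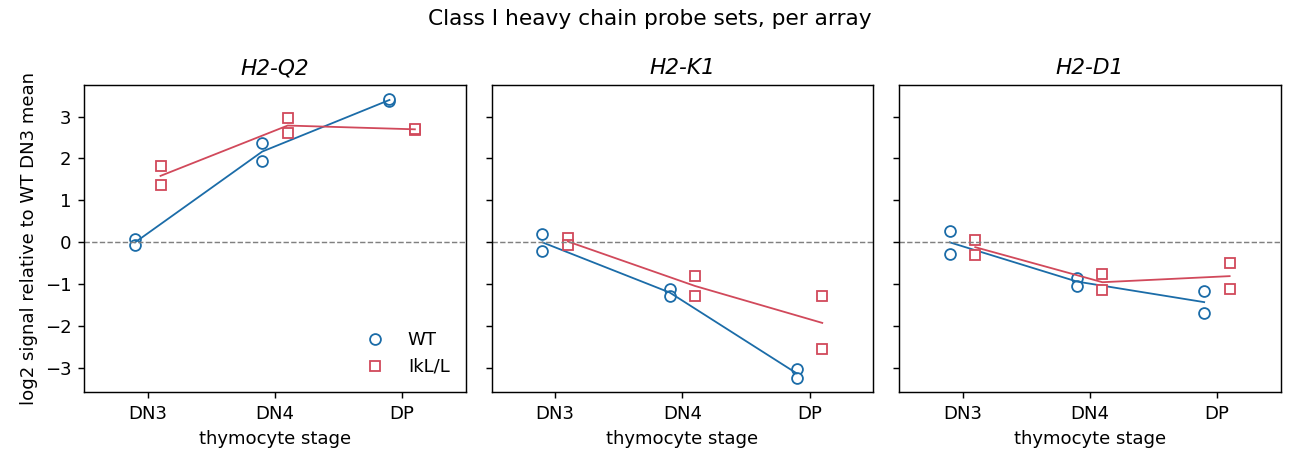
Log2 signal of 3 heavy chain genes relative to the mean of the WT DN3 arrays (vertical axis) at each stage, with 1 point per array and lines through group means. H2-Q2 rises from DN3 to DP in WT while H2-K1 falls, and the 2 IkL/L DP arrays differ from each other for H2-K1, at 9.11 and 10.37 before centring.

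The immunoproteasome genes were lower in DP than in DN4 cells, and Psmb9 and Psmb10 passed in both genotypes. Psmb9 read 10.44 and 10.37 in WT DN3, 10.27 and 10.21 in DN4, and 8.79 and 8.65 in DP cells. Its fall from DN4 to DP was 1.52 ± 0.14 in WT, to 34.9% (adjusted p = 3.55e-06). In IkL/L it read 10.38 and 10.03, then 10.39 and 10.16, then 9.43 and 9.42, a last fall of 0.85 ± 0.14, to 55.5% (adjusted p = 0.000438). No array of the DN3 or DN4 groups overlapped with a DP array in either genotype. Psmb10 went from 10.50 and 10.56 in WT DN4 to 8.95 and 9.44 in DP, a fall of 1.33 ± 0.15, to 39.7% (adjusted p = 1.48e-05). In IkL/L it went from 10.63 and 10.69 to 9.81 and 9.89, a fall of 0.81 ± 0.15, to 57% (adjusted p = 0.000902). These 4 calls held under all 26 alternatives.

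Psmb8 had the smallest of the 3 falls in WT. It read 11.60 and 11.61 in WT DN4 and 10.84 and 11.19 in WT DP cells, a fall of 0.59 ± 0.15 (adjusted p = 0.0044). With the difference between 3' and 5' actin probe sets as a covariate, a measure of RNA integrity and labelling, this was -0.38 (adjusted p = 0.0681). In IkL/L it went from 11.66 on both arrays to 11.47 and 11.25, a difference of -0.30 ± 0.15 (adjusted p = 0.122). The second Psmb8 probe set fell by 0.85 ± 0.11 in WT (adjusted p = 0.000351) and differed by -0.24 ± 0.11 in IkL/L (adjusted p = 0.188). None of the 3 subunits passed from DN3 to DN4 in either genotype, with differences between -0.28 and 0.14.

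In DP cells Psmb9 and Psmb10 were higher in IkL/L than in WT. Psmb9 was at 163% of WT, a difference of 0.70 ± 0.14 (adjusted p = 0.0116), and Psmb10 at 157%, a difference of 0.65 ± 0.15 (adjusted p = 0.0243). Both IkL/L arrays exceeded both WT arrays for each. Psmb8 differed by 0.35 ± 0.15 (adjusted p = 0.224), also with both IkL/L arrays above. Its second probe set differed by 0.12, with overlapping arrays (8.08 and 8.2 in IkL/L, 7.91 and 8.12 in WT). Markers of the DN3 stage also differed between genotypes in DP cells. From DN4 to DP in WT 6 of these 7 markers fell (median -0.92), against 33.2% of all genes. In IkL/L 1 fell and 1 rose at this step (median -0.04), against 26% and 19.5% of all genes. Their mean was 8.08 and 8.34 on the IkL/L DP arrays against 7.15 and 7.29 on the WT DP arrays, and 4 of 7 (Dtx1, Notch1, Notch3 and Ptcra) were higher in IkL/L DP cells, against 4.36% of all genes, with a median of 0.83. For the change of the genotype difference from DN3 to DP 4 of 7 were called, all up, against 1.38% of all genes, with a median of 1.21. Il2ra differed by -0.14 in DP cells (adjusted p = 0.8). The part of these markers in the result was not tested. At DN3 the brightest probe sets of the 3 subunits differed by -0.29 to -0.10 and at DN4 by 0.04 to 0.13, with no call. The second Psmb8 probe set gave -0.19 at DN3 and -0.48 at DN4. In the limma fit over all probe sets the DN4 value had an adjusted p of 0.0707, and 0.0385 with array weights. The genotype difference of Psmb9 changed by 0.90 ± 0.20 from DN3 to DP (adjusted p = 0.0493) and by 0.67 ± 0.20 from DN4 to DP (adjusted p = 0.155). For Psmb10 these changes were 0.76 ± 0.21 (adjusted p = 0.137) and 0.52 ± 0.21 (adjusted p = 0.285).

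These genotype calls rest on few arrays. The DP call of Psmb9 was lost without WT DP replicate 2 (0.64, adjusted p = 0.0604), IkL/L DP replicate 1 (0.70, adjusted p = 0.0797) or IkL/L DP replicate 2 (0.71, adjusted p = 0.067). That of Psmb10 was lost without WT DP replicate 1 (0.41, adjusted p = 0.127), IkL/L DP replicate 1 (0.69, adjusted p = 0.101) or IkL/L DP replicate 2 (0.62, adjusted p = 0.139), and without the 3 IkL/L replicate 2 arrays (0.62, adjusted p = 0.166). The change of the Psmb9 difference from DN3 to DP lost its call in 19 of 26 alternatives, with values between 0.73 and 1.08. It missed the threshold on removal of any single array other than IkL/L DN3 replicate 1 (1.08, adjusted p = 0.0148), with adjusted p up to 0.203 for WT DN3 replicate 1.

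**Figure D3:**
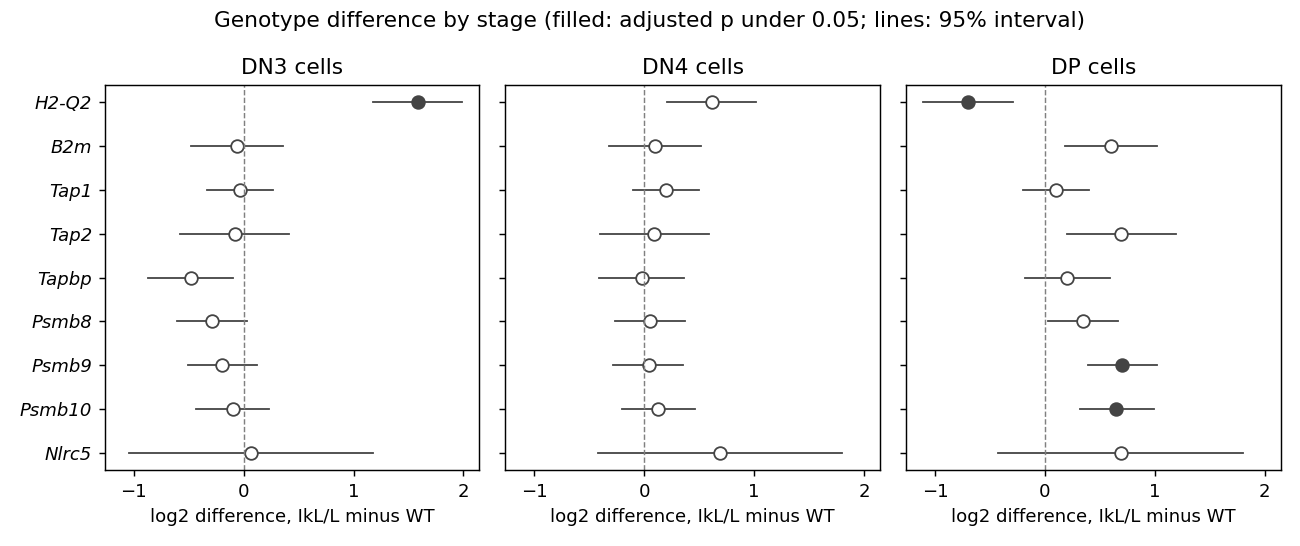
Log2 difference between IkL/L and WT cells (horizontal axis) for the 9 genes in DN3, DN4 and DP cells, with 95% intervals from limma and filled points where the adjusted p was under 0.05. H2-Q2 moves from 1.59 in DN3 to -0.70 in DP cells, and Psmb9 (0.70) and Psmb10 (0.65) are filled in DP cells.

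The constitutive subunits that Psmb8, Psmb9 and Psmb10 replace fell at the same step. In WT, Psmb5 fell by 0.96, Psmb6 by 0.56 and Psmb7 by 1.36 from DN4 to DP, and in IkL/L by 0.72, 0.46 and 1.11. Of 19 constitutive proteasome core and assembly genes, 15 fell at this step in WT (median -0.82 against -0.15 over all tested genes, of which 33.2% fell) and 17 in IkL/L (median -0.66 against -0.04, with 26% of all genes). None of the 19 was called between genotypes at a single stage, and their median in DP cells was 0.21 against 0.03 over all genes. Averaged over stages 3 were higher in IkL/L (0 to 4 over the alternatives), against 9.01% of all genes. Without the 3 IkL/L replicate 2 arrays, 10 of the 17 falls in IkL/L were called.

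Set against its constitutive partner on the same array, Psmb9 was lower in WT DP than in WT DN4 cells. Only changes in such a difference can be read, since probe sets differ in brightness. Psmb9 minus Psmb6 went from -1.50 ± 0.18 (SD, n = 2) in WT DN4 to -2.46 ± 0.33 in WT DP cells, a change of -0.96, and by -0.39 in IkL/L. In DP cells IkL/L was above WT by 0.46 on this measure, with arrays at -2.08 and -1.93 against -2.23 and -2.69. From DN4 to DP, Psmb10 minus Psmb7 changed by 0.02 in WT and 0.30 in IkL/L, and Psmb8 minus Psmb5 by 0.36 and 0.42. In DP cells IkL/L was above WT by 0.09 for Psmb10 minus Psmb7 and by 0.18 for Psmb8 minus Psmb5. Psmb7 itself was higher in IkL/L DP cells by 0.56 ± 0.24 without passing (limma adjusted p = 0.423 over all probe sets). Averaged over stages, the genotype differences were 0.01 for Psmb8 minus Psmb5, 0.03 for Psmb9 minus Psmb6 and -0.12 for Psmb10 minus Psmb7. Exact two-sided permutation within stages gave p = 0.935, 0.852 and 0.454 (0.935 for each after adjustment over the 3, smallest possible p 0.00926). In the same order the DN3 differences were -0.26, -0.25 and -0.26, against the positive DP values above. The average mixes these opposite signs, so the test cannot decide on a difference in DP cells alone. Within 1 stage this permutation test cannot give a p under 0.333, and the DP values of the 3 pairs are descriptions. Of the proteasome activators, Psme1 (-0.72) and Psme3 (-1.55) fell and Psme4 (0.75) rose from DN4 to DP in WT.

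**Figure D4:**
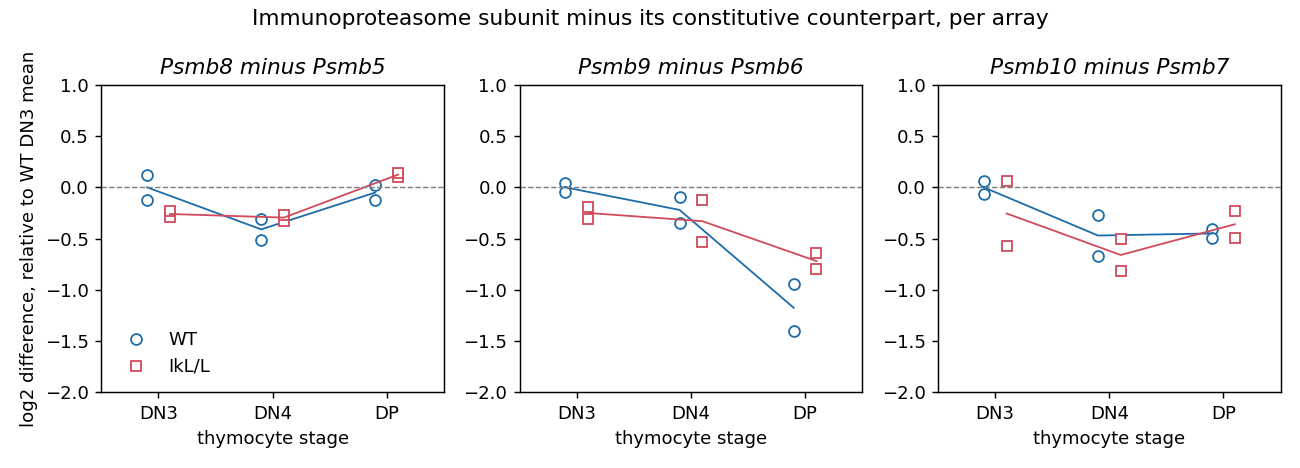
Log2 signal of each immunoproteasome subunit minus that of its constitutive counterpart, relative to the WT DN3 mean (vertical axis), at each stage, with 1 point per array and lines through group means. Psmb9 minus Psmb6 drops by 0.96 from WT DN4 to WT DP cells and by 0.39 in IkL/L, while Psmb10 minus Psmb7 changes by 0.02 and 0.30.

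The transporter gene Tap1, which shares the 225 bases printed above with Psmb9, moved opposite to that gene from DN4 to DP in WT. It was 9.16 and 8.96 in WT DN3, 8.52 and 8.74 in DN4, and 9.08 ± 0.11 (SD, n = 2) in DP cells. From DN4 to DP it rose by 0.45 ± 0.14 (adjusted p = 0.0141), where Psmb9 fell by 1.52. The rise lost its call without WT DN4 replicate 1 (0.34, adjusted p = 0.114) or WT DP replicate 2 (0.37, adjusted p = 0.0775), and with the actin covariate (0.42, adjusted p = 0.0609). In IkL/L it was 8.99 and 9.07, then 8.77 and 8.89, then 9.25 and 9.11, a last difference of 0.35 ± 0.14 (adjusted p = 0.0539). Between genotypes Tap1 differed by -0.03 in DN3, 0.20 in DN4 and 0.10 in DP cells, and each 95% interval lay within -0.33 to 0.50. The other 3 Tap1 probe sets had group means between 3.17 and 4.36, below the array medians.

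Tap2, the partner of Tap1, and Tapbp differed from it in the steps that passed. Tap2 was 10.12 and 9.81 in WT DN3, 9.44 and 9.57 in DN4, and 9.36 and 9.79 in DP, with no step called. In IkL/L it was 10.11 and 9.65, then 9.57 and 9.64, then 10.59 and 9.95, and the last step, 0.67 ± 0.23, passed (adjusted p = 0.0306). That call was lost without IkL/L DN4 replicate 1 (0.63, adjusted p = 0.123), IkL/L DN4 replicate 2 (0.70, adjusted p = 0.0831) or IkL/L DP replicate 1 (0.35, adjusted p = 0.293). In DP cells Tap2 was higher in IkL/L by 0.69 ± 0.23 without passing (adjusted p = 0.107), and the value depends on single arrays. It was 1.01 (adjusted p = 0.0414) without IkL/L DP replicate 2, 0.38 (adjusted p = 0.558) without IkL/L DP replicate 1, and 0.91 (adjusted p = 0.0343) with the replicate number as a block within genotype.

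Tapbp was 10.20 and 10.09 in WT DN3, 9.09 and 9.31 in DN4, and 9.28 and 9.73 in DP. It fell by 0.95 ± 0.18 from DN3 to DN4 (adjusted p = 0.00563), a call that did not hold on removal of WT DN3 replicate 1 (-0.89, adjusted p = 0.0725) or WT DN4 replicate 1 (-0.83, adjusted p = 0.0732). In IkL/L it was 9.84 and 9.49, then 9.28 and 9.08, then 9.64 and 9.78, and rose by 0.53 ± 0.18 from DN4 to DP (adjusted p = 0.0269). The rise was lost without IkL/L DN4 replicate 2 (0.43, adjusted p = 0.157), IkL/L DP replicate 1 (0.60, adjusted p = 0.0556) or IkL/L DP replicate 2 (0.46, adjusted p = 0.14). Its second, dimmer probe set gave -0.22 for the first WT step and -0.18 for the last IkL/L step, neither called. With the mean of both probe sets these steps were -0.58 (adjusted p = 0.0555) and 0.17 (adjusted p = 0.423).

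**Figure D5:**
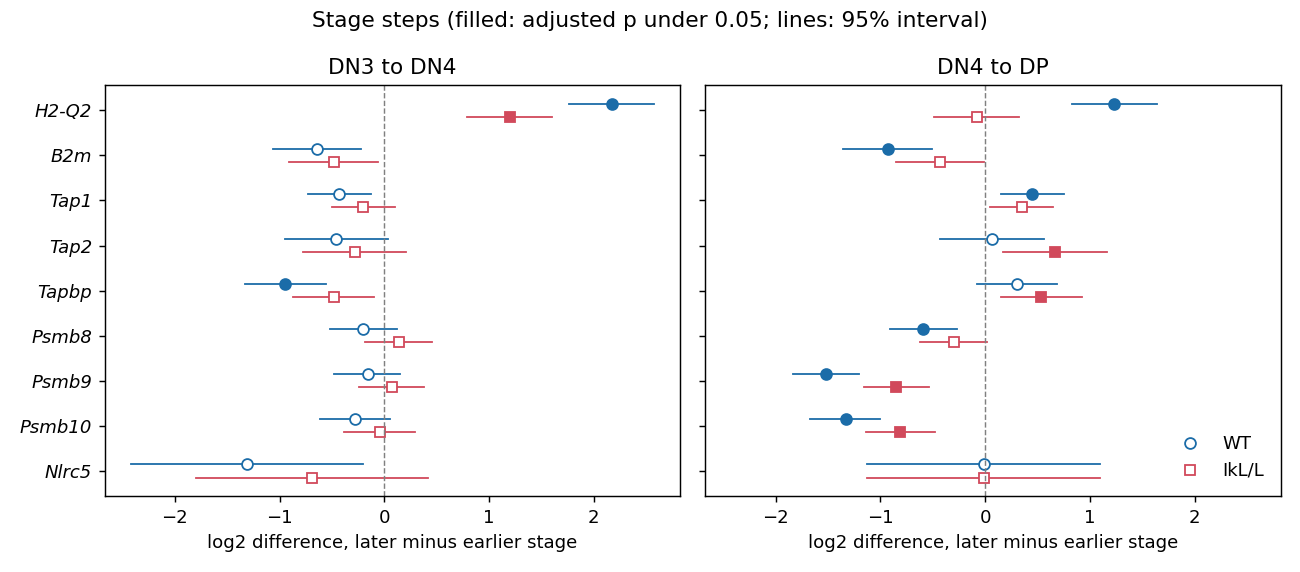
Log2 difference of each gene at the step from DN3 to DN4 and at that from DN4 to DP cells (horizontal axes) in WT and IkL/L cells, with 95% intervals from limma and filled points where the adjusted p was under 0.05. At the second step H2-Q2 (1.23) and Tap1 (0.45) are filled to the right in WT, and B2m (-0.93), Psmb8 (-0.59), Psmb9 (-1.52) and Psmb10 (-1.33) to the left.

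Nlrc5 had the widest gaps between replicates, and none of its comparisons passed. In WT it was 7.14 and 6.48 in DN3, 5.61 and 5.40 in DN4, and 5.49 on both DP arrays, close to the array median of 5.14 to 5.22. In IkL/L replicate 1 was 6.46, 5.60 and 5.29 and replicate 2 was 7.31, 6.79 and 7.07 at the 3 stages. Replicate 2, the arrays at the floor for Y-linked genes, was thus higher at each stage, and in DP cells the WT arrays lay between the 2 IkL/L arrays. The genotype differences were 0.07 ± 0.51 in DN3, 0.69 ± 0.51 in DN4 and 0.69 ± 0.51 in DP cells (adjusted p = 0.964, 0.429 and 0.551). Leaving out 1 array moved the DP value between -0.20 and 1.57, neither called. The WT step from DN3 to DN4 was -1.31 ± 0.51 (adjusted p = 0.141), and passed without the 3 IkL/L replicate 2 arrays, which set the spread for all groups (-1.31, adjusted p = 0.00275).

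Counted together, 1 of the 9 genes was called between genotypes in DN3 cells, higher in IkL/L, against 4.28% of all tested genes in either direction (2.08% higher and 2.21% lower). None was called in DN4 cells, where 6.88% of all genes were (4.4% higher and 2.48% lower). In DP cells 2 were higher and 1 lower, against 5.98% of all genes (4.36% higher and 1.62% lower), and the median difference of the 9 was 0.60 against 0.03 over all genes. Averaged over stages 1 was higher, against 15.5% (9.01% higher and 6.49% lower). Changes of the genotype difference between stages were rarer over all genes. From DN3 to DP 1 member was called up and 1 down, against 1.73% (1.38% up and 0.352% down), and from DN4 to DP 1 was called down, against 0.987% (0.661% up and 0.326% down). None was called from DN3 to DN4, against 0.0515% (0.0258% in each direction), and an F test of any such change called 1 member, H2-Q2, against 1.47% of all genes. Steps between stages moved more genes. From DN3 to DN4 in WT 1 member rose and 1 fell, against 9.25% of all genes (1.55% up and 7.7% down), and in IkL/L 1 rose, against 4.4% (1.2% up and 3.19% down). From DN4 to DP in WT 2 rose and 4 fell, against 57% (23.8% up and 33.2% down), and in IkL/L 2 rose and 2 fell, against 45.5% (19.5% up and 26% down).

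Genes that act beside the 9 were read from lists. Of 10 peptide loading and trimming genes, 6 fell and 2 rose from DN4 to DP in WT, against 33.2% and 23.8% of all genes. The aminopeptidase gene Lap3 fell by 3.73, Pdia3, which encodes a partner of tapasin, by 1.40, the chaperone gene Hspa5 by 1.25, and Erap1, which trims peptides in the endoplasmic reticulum, by 0.90. In IkL/L 6 fell and 1 rose, against 26% and 19.5%, with Lap3 at -2.87, Erap1 at -1.24, Hspa5 at -1.03 and Pdia3 at -0.83. Lap3 was the 1 gene of this list called between genotypes at a single stage, higher in IkL/L DP cells by 0.79 ± 0.16 (adjusted p = 0.00975). It lost that call without WT DP replicate 1 (0.77, adjusted p = 0.0507) or IkL/L DP replicate 2 (0.70, adjusted p = 0.0902).

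Of 13 tested factors of class I promoters, none was called between genotypes in DN3 or DN4 cells. Averaged over stages 2 were lower in IkL/L and none higher, against 6.49% and 9.01% of all genes. They were Irf8 (-0.34, adjusted p = 0.0267) and Rfx5 (-0.24, adjusted p = 0.0362), calls lost in 11 of 24 and 13 of 25 alternatives. In DP cells Irf8 was lower in IkL/L by 0.65 ± 0.16 (adjusted p = 0.0298), a call lost in 8 of 25 alternatives. Among them were those without WT DP replicate 1 (adjusted p = 0.0684) or 2 (0.109) and without IkL/L DP replicate 1 (0.204) or 2 (0.0722), and the mean or median of its probe sets gave -0.34 (0.183 and 0.235). From DN4 to DP in WT 3 rose and 3 fell, against 23.8% and 33.2% of all genes: Rfx5 (0.91) and Rfxank (0.97), subunits of the RFX complex that binds the X box, were among the risen, and Irf8 (-1.62) and Irf1 (-0.97), interferon regulatory factors, among the fallen. Irf1 in IkL/L differed by -0.45 (adjusted p = 0.0749), and its genotype difference in DP cells was 0.31 ± 0.19 (adjusted p = 0.44). Ciita, the class II relative of Nlrc5, had group means between 4.39 and 4.50 and was not tested.

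Some interferon-induced genes differed between genotypes in DP cells. Of 25 tested, 7 were higher in IkL/L and 1 lower, against 4.36% and 1.62% of all genes, with a median of 0.58 against 0.03. Iigp1, an immunity-related GTPase gene, differed by 2.21 ± 0.48 (adjusted p = 0.0164), Usp18, a negative regulator of interferon signalling, by 1.93 ± 0.21 (adjusted p = 0.000137), Rtp4 by 1.45 ± 0.17 (adjusted p = 0.000289) and Epsti1 by -1.95 ± 0.19 (adjusted p = 5.91e-05). Over the alternatives between 5 and 11 were called higher. The Iigp1 difference ranged from 1.18 to 3.25. Its call was lost with the trend and robust prior (adjusted p = 0.0682), array weights (0.0529) and the arrays of the contrast alone (0.11). Iigp1 missed the threshold without WT DP replicate 1 (adjusted p = 0.051) or 2 (0.0823). In DN3 cells 2 of 25 were higher and 1 lower (2.08% and 2.21% of all genes), and in DN4 cells 3 higher and 1 lower (4.4% and 2.48%). Averaged over stages 13 of 25 were higher and 1 lower, against 9.01% and 6.49% of all genes, with a median of 0.36. The genotype difference changed upward for 2 of 25 from DN4 to DP and for 2 from DN3 to DP, against 0.661% and 1.38%. From DN3 to DN4 in WT 13 of 25 fell and none rose, against 7.7% of all genes that fell, and 5 fell in IkL/L, against 3.19%. Of 8 interferon receptor and kinase genes none was called between genotypes at a single stage. Averaged over stages Socs1, an inhibitor of cytokine signalling, was lower in IkL/L (-0.43, adjusted p = 0.0139). The difference was -0.27 without the 3 IkL/L replicate 2 arrays. With the block within genotype, which compares the genotypes at replicate 1, it was -0.25 (adjusted p = 0.204). From the list 5 rose from DN4 to DP in each genotype, against 23.8% of all genes in WT and 19.5% in IkL/L, among them Jak2 (1.37 in WT), Ifngr1 (1.28), Ifngr2 (1.12) and Socs1 (0.96).

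The mean profile of the 9 genes over the 12 arrays, each gene centred, was set against 11640 other tested genes as a description. The most alike were Ifi47 (Pearson r = 0.980), 1810030O07Rik (0.938), Notch1 (0.937), Grn (0.936) and Pam16 (0.934). With the stage means taken out they were Ifi47 (0.971), Smo (0.941), Rab8b (0.939), Dip2c (0.928) and Trim25 (0.927). The 12 arrays fall in 3 stages, and arrays of 1 stage share a sort gate, so the points are not independent. The members themselves ranged from r = 0.875 for B2m to -0.587 for H2-Q2 with the mean they are part of, so the 9 did not follow 1 course.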

How the data were processed

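RNA of 12 thymocyte samples was labelled by repeated amplification and hybridised to Affymetrix mouse arrays, per the labels' protocols. The values are log2 signals that the authors deposited after RMA (robust multi-array average), per the submitters' processing notes; the version and annotation used are not given in the sources used here. RMA equalises the distributions of the arrays, so a shift shared by most genes cannot be seen. Of 45099 probe sets, 34958 carry 1 gene symbol in the platform annotation, 932 several and 9209 none, and a gene was represented by its brightest single-symbol probe set. Genes at or above the array median on at least 2 arrays were tested (11649 of 18194). limma 3.58.1 in R 4.3.3 fitted 1 mean per group (6 residual and 5.67 prior degrees of freedom), with Benjamini-Hochberg adjustment, and a second fit took all 45099 probe sets. The procedure was tested on simulated data. Motifs were searched in RefSeq promoter windows. Stages and genotypes are those of the labels. The members and the gene lists were chosen with earlier results of these data known. Genes named are all members, up to 4 called genes per list and comparison by size, Psmb5, Psmb6, Psmb7, Irf1, Rfx5 and Ciita, and the 5 genes most like the members' mean; a further item of this rule is not reported here. Alternatives covered the filter, the choice of probe set, the variance prior, array weights, normalization, replicate blocks, the arrays included and an actin covariate.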

Additional observations from a re-analysis of the deposited data

Results flagged for a closer look

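The genotype difference of H2-Q2 was not the same at all stages. It changed by -2.29 ± 0.26 between DN3 and DP cells (adjusted p = 0.000983 by limma) and by -1.32 ± 0.26 between DN4 and DP cells (adjusted p = 0.0422), and both IkL/L arrays lay above both WT arrays in DN3 cells and below both in DP cells. The genotype difference of Psmb9 changed by 0.90 ± 0.20 between DN3 and DP cells (adjusted p = 0.0493 by limma), from -0.20 to 0.70.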

How the results depend on the processing

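Of 2532 values of the 9 genes over the alternatives, 2423 kept their direction and side of the threshold, or changed sign with neither value called (72 of them), 74 lost a call, 35 gained one and 0 reversed a call. H2-D1, which is no member, reversed at the WT step from DN3 to DN4, from -0.94 to 0.05, with the median of its probe sets. The cause of these changes was not tested, beyond fewer arrays or probe sets in the fits that leave some out. Counts of members called that differed by 1.5 times or more, or from or to 0, were these. In DN4 cells 1 was called higher with array weights and with the arrays of the contrast alone. In DP cells 3 were called higher with the replicate block within genotype, where Tap2 gained a call, and 0 with the arrays of the contrast alone, and 0 lower with no filter, the median of probe sets, array weights, the replicate block, the contrast alone and without the 3 IkL/L replicate 2 arrays. Averaged over stages 0 were called with the replicate block within genotype and without those 3 arrays. For the change of the genotype difference from DN4 to DP 0 were called lower with the median of probe sets, a second quantile normalization, the replicate block and without the 3 arrays. From DN3 to DP 0 were called higher with no filter, the 75th percentile filter, the median of probe sets, array weights, centred arrays, the contrast alone, the actin covariate and without the 3 arrays. From DN3 to DN4 in WT 0 fell with the mean or median of probe sets, 2 with the trend and robust prior, the block within genotype, the random block and the actin covariate, and 3 with array weights, the contrast alone and without the 3 arrays; in IkL/L 1 fell with the actin covariate. From DN4 to DP 1 rose in WT with the mean or median of probe sets, and 1 in IkL/L with these and without the 3 arrays, against 3 with the 75th percentile filter, array weights, a second quantile normalization and the random block. Leaving out 1 array gave 0 to 1 called higher in DN4 cells, 1 to 2 higher and 0 to 1 lower in DP cells, 1 to 2 averaged over stages, 0 to 1 for each of the changes of the genotype difference to DP, 0 to 2 falls from DN3 to DN4 in WT, 1 to 3 rises from DN4 to DP in WT, and 0 to 3 rises and 2 to 3 falls there in IkL/L. Psmb8 minus Psmb5 averaged over stages was -0.10 with the mean or median of probe sets. Same-numbered samples correlated at 0.147 to 0.317 among WT groups, 0.0149 to 0.494 among IkL/L groups and -0.338 to 0.0624 across genotypes, so the numbers were not taken to pair samples across genotypes. Within IkL/L the replicate 2 arrays share the low Y-linked signal, while 1 of 3 pairs correlated above 0.1. The replicate block within genotype had replicate 1 as its reference. Its genotype differences therefore hold at the level of replicate 1 and do not average the 2 arrays. Calls between genotypes lost or gained with it, also in the counts above, thus belong to another contrast. By this fit the averaged H2-Q2 difference was 0.28 (adjusted p = 0.201) and the Tap2 difference in DP cells 0.91 (adjusted p = 0.0343). With the replicate block the DP difference of H2-Q2 had an adjusted p of 0.0663. Over all tested genes and all alternatives, the calls between genotypes ranged from 205 to 791 in DN3 (499 as reported), 247 to 1604 in DN4 (802) and 344 to 1048 in DP cells (697), from 33 to 231 (115) and 76 to 359 (202) for the changes of the genotype difference from DN4 to DP and from DN3 to DP, and from 327 to 2157 (1078) in WT and 211 to 815 (512) in IkL/L for the step from DN3 to DN4.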

Other observations

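Genes of the MHC class II pathway, which presents peptides to CD4 T cells, also differed between genotypes. Of 7 tested, 3 were higher and 1 lower in IkL/L DN3 cells (2.08% and 2.21% of all genes), 1 higher and 2 lower in DN4 cells (4.4% and 2.48%), and 2 higher and 1 lower in DP cells (4.36% and 1.62%). H2-Ab1, a class II beta chain gene, was higher in IkL/L at every stage by limma, by 1.44 ± 0.19 in DN3, 1.11 ± 0.19 in DN4 and 1.38 ± 0.19 in DP cells (adjusted p = 0.000886, 0.00547 and 0.00109). This is its brightest probe set: with the mean or median of its probe sets the DN4 difference was 0.51 and 0.42 (adjusted p = 0.0779 and 0.17) and the DP difference 0.59 and 0.15 (adjusted p = 0.0586 and 0.765). The DN4 call was also lost without WT DN4 replicate 1 (0.91, adjusted p = 0.0636) or IkL/L DN4 replicate 1 (0.97, adjusted p = 0.0599). H2-Ob, part of an inhibitor of class II loading, was lower at every stage, with differences of -0.78 ± 0.19, -0.81 ± 0.19 and -1.36 ± 0.19 (adjusted p = 0.0396, 0.0265 and 0.001). The DN3 call was lost in 14 of 25 alternatives, 9 of them on removal of a single array (-0.46 with adjusted p = 0.271 without IkL/L DN3 replicate 2), and the DN4 call in 6 of 25, 4 of them on removal of either array of either genotype in DN4 cells (adjusted p = 0.0882 to 0.18). The DP call held in all 25. Its partner H2-Oa was higher in DP cells by 1.17 ± 0.18 (adjusted p = 0.00224), in all 26 alternatives. The mean level of dendritic cell and macrophage markers, which carry class II, lay between 5.30 and 5.72 on the arrays, and its part in these differences was not tested.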
